A study of Homo sapiens with 4 samples.

Results

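Jurkat cells are a wild-type human T lymphoblast line grown from a T-cell leukaemia. Their response to phytohaemagglutinin (PHA), in the absence of the BET bromodomain inhibitor JQ1, was followed here in the pair of RNA-seq libraries that differ in PHA alone. The DMSO library came from cells kept with DMSO for 24 h, and the DMSO + PHA library from cells kept for 24 h with DMSO and 150 ng/ml PHA. These are 2 of the 4 libraries of the study, and the other 2, JQ1 and JQ1 + PHA, came from cells given 0.5 μM JQ1 for 24 h without or with PHA. The study had screened compounds in Jurkat cells for their effect on PD-1, the receptor encoded by PDCD1. Each condition is 1 library of 1 cell line, so no test between conditions was made, nothing is known of the spread between cultures, and the 95% intervals below cover counting error only.

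PHA is a plant lectin that binds sugars on T-cell surface glycoproteins, including the T-cell receptor and CD3, and brings them together without antigen. The cross-linked receptor acts through the kinases LCK and ZAP-70 and the adaptors LAT and SLP-76. From there, calcium and calcineurin move NFAT factors into the nucleus, the RAS and ERK kinases raise EGR and AP-1 factors, and protein kinase C reaches NF-kB. CD69 and CD40 ligand are surface proteins classically used to read such activation, and PD-1 is an inhibitory receptor that activated T cells display.

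Of 50868 genes in the files, 11503 had a mean FPKM (counts divided by gene length and by the library total) of at least 1 over the 4 libraries and were compared. A gene was counted as higher or lower when its log2 ratio of FPKM + 0.1, DMSO + PHA over DMSO, reached 1 or -1, which is 2-fold. By that rule 241 genes were higher with PHA, 2.1% of those compared, and 137 were lower, 1.19%, for 378 either way, 3.29%. At least 4-fold differences were seen for 56 higher and 26 lower genes. The median log2 ratio was -0.0063, and the middle 90% of genes lay between -0.51 and 0.63, so that the bulk of genes differed by less than 2-fold. In RNA from whole cultures, a larger share of responding cells and more RNA per cell cannot be told apart, here or in any result below. TPM4, at 1.0016, was just inside the threshold on the higher side and KLHL24, at 0.9999, just outside it. On the lower side R3HDM4, at -1.0027, was just inside and CTB-50L17.7, at -0.9973, just outside. In 343 of the 378 genes the interval of the ratio of shares of counts excluded equality. The filter reads the PHA libraries too, so genes that are nearly silent without PHA entered only through them.

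Total counts were between 18620954 and 19685401 per library, and genes of the mitochondrial genome took 6.27 to 7.07% of them. All 12 T-cell markers examined were above the filter, with summed levels of 2073 in DMSO, in CPM (counts for a library size made equal), and 2536 CPM in DMSO + PHA. Markers of other cells were far lower. The 8 B-cell markers summed to 18.8 and 16.3 CPM, nearly all from CD79A, and 5 of them had 3 counts or fewer in both libraries. Myeloid markers summed to 2.23 and 2.34 CPM, natural killer markers to 2.66 and 2.44 CPM, and fibroblast markers to 4.89 and 6.96 CPM, the last from COL1A1 alone. The erythroid and epithelial markers had 3 counts or fewer in each of the 2 libraries.

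**Figure D1:**
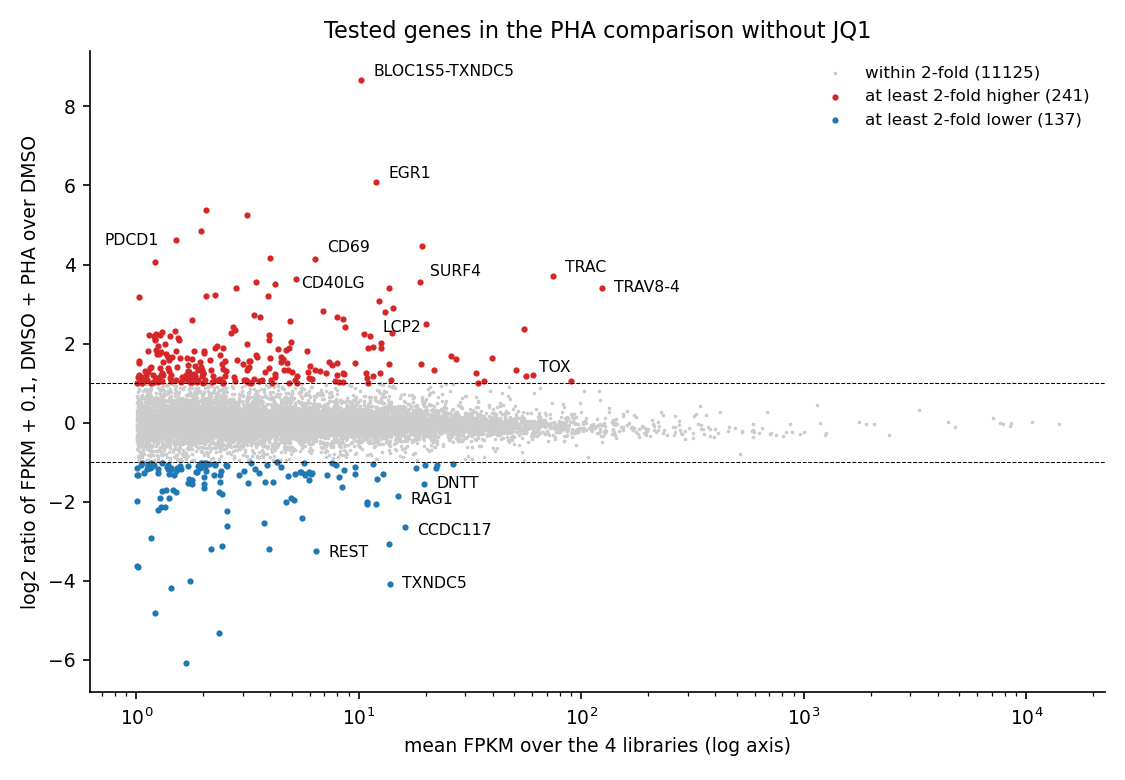
Each point is 1 of the 11503 genes compared, placed by its mean FPKM over the 4 libraries (horizontal log axis) and its log2 ratio of FPKM + 0.1, DMSO + PHA over DMSO (vertical axis), with dashed lines at 2-fold. The 241 higher genes are red and the 137 lower genes blue, with 56 and 26 of them at least 4-fold apart, and EGR1, CD69, PDCD1, TRAC and CD40LG are among the highest.

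EGR1 and its relatives led the early response transcription factors, which growth and antigen receptors switch on within minutes and which then set later genes. EGR1, a zinc finger factor downstream of ERK (ENSG00000120738, chr5:138465490-138469315 on the plus strand of GRCh38, in the files' own coordinates), had 29 counts in DMSO and 2464 in DMSO + PHA. Its share of counts was 81.2-fold higher with PHA (interval 56.4 to 122), the highest ratio among the higher genes compared that had at least 3 counts in DMSO. With JQ1 present, EGR1 had 25 counts without and 400 with PHA, so both PHA libraries lay above both libraries without it. Its relatives were scarcer and fell under the filter. EGR2 had 2 and 157 counts, EGR3 had 11 and 489, and EGR4 had 1 and 15 in DMSO and DMSO + PHA. The ratios were 75.0 (interval 20.4 to 625), 42.5 (23.5 to 85.7) and 14.3 (2.21 to 604), so the EGR family was higher together, with wide counting intervals for its rare members. NAB2, a corepressor that binds EGR proteins and is itself an EGR target, went from 139 to 592 counts, 4.07-fold higher (3.38 to 4.93).

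NR4A orphan receptors, which calcium signals also induce, were higher at low levels. NR4A1 had 60 counts in DMSO and 210 in DMSO + PHA, 3.35-fold higher (2.50 to 4.54), and NR4A3 had 7 and 56, a ratio of 7.65 (3.48 to 19.9). NR4A2 had no counts in either library. IER3, an early gene that restrains cell death, had 49 and 259 counts, 5.05-fold higher (3.71 to 7.0). In all, 10 of the 18 listed early response genes passed the filter and 3 were higher, EGR1, NAB2 and IER3, where 2.1% of all genes compared were, with a median log2 ratio of 0.46 beside -0.0063. Of the 6 members under the filter with at least 10 counts in the larger library, 5 were at least 2-fold higher with an interval above equality, against 11.8% of the 4412 such genes of all kinds, of which 4.85% were lower. That count minimum itself keeps rare genes that differ. SRF, the factor that recruits ERK signals to early genes, was close to level at 1597 and 1807 counts.

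The promoters of the most responsive of these genes and of some others are shown here to place the results on sequence. Each is the 250 bases before the RefSeq start on GRCh38.p14, read 5′ to 3′ on the gene's strand. Capitals mark matches on either strand to letters searched for: GCGNGGGCG (EGR), TGANTCA (AP-1), TGACGTCA (CRE), GGAAAA (NFAT core), and the CArG box (SRF) and the kB site (NF-kB), the last pair by name. In EGR1 they are 1 EGR match and 2 CArG boxes, in PDCD1 a pair of kB matches that overlap each other, in NAB2 1 EGR match and in DUSP2, an ERK phosphatase described below, 2 EGR matches. The stretch printed for RAG1, which was lower with PHA, held none of the 6 motifs. Only 1 start was used for each printed gene, so any other promoter of RAG1 was not searched. EGR1 and PDCD1 were shown for their high ratios, and NAB2, DUSP2 and RAG1 were picked after their values were seen.
EGR1, chr5:138465229-138465478, plus strand: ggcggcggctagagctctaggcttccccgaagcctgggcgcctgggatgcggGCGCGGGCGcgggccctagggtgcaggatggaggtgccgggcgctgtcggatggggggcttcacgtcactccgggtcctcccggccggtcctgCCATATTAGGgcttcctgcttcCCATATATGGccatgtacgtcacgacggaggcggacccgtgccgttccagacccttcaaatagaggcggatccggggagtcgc
PDCD1, chr2:241858895-241859144, minus strand: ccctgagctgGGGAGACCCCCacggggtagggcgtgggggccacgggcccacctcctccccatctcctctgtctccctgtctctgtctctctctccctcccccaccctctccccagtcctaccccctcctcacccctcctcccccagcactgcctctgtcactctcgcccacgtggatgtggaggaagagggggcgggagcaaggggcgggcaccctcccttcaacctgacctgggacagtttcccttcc
NAB2, chr12:57088864-57089113, plus strand: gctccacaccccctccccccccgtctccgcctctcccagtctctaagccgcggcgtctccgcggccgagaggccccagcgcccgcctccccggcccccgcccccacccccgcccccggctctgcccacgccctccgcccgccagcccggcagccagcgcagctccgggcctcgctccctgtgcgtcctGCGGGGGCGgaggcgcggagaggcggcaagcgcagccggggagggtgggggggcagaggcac
DUSP2, chr2:96145441-96145690, minus strand: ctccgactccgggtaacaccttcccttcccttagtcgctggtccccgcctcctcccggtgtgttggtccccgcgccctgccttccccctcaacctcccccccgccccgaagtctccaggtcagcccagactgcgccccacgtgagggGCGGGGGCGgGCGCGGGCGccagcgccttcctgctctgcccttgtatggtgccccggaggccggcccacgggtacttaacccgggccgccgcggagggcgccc
RAG1, chr11:36510103-36510352, plus strand: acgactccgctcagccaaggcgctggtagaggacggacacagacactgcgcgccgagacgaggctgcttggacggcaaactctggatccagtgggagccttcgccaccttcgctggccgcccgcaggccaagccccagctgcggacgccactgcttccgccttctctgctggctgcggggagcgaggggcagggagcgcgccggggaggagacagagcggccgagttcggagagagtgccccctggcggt

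Of all 35116 promoters in the RefSeq table used, 8.41% hold the EGR letters, 1.16% a CArG box, 9.96% a kB site, 6.57% the AP-1 letters, 1.65% the CRE and 21.2% the NFAT core in these 250 bases. Among the 8164 of 11503 genes compared that matched the table, 13.8% held the EGR letters, 1.03% a CArG box, 11.3% a kB site, 3.27% the AP-1 letters, 3.27% the CRE and 17.9% the NFAT core. The CArG boxes of EGR1 lie 105 to 96 and 83 to 74 bases before the start, and the EGR letters of NAB2 lie 62 to 54 bases before it. A comparison of these shares between higher and lower genes is void, because only 137 of the 241 higher and 72 of the 137 lower genes matched the table by symbol. No promoter is printed for CD69, CD40LG and TRAC.

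Of the 28 gene lists, which were chosen with earlier results of these data known, surface molecules of activated T cells had the largest share past 2-fold. CD69, a C-type lectin that holds T cells in tissue, had 67 counts in DMSO and 1359 in DMSO + PHA, and 51 and 198 with JQ1. It was 19.4-fold higher (15.2 to 25.2) without JQ1. CD40LG, the ligand with which helper T cells license B cells and dendritic cells, had 165 and 1855 counts, 10.8-fold higher (9.16 to 12.7), and 26 and 81 with JQ1. Both genes were therefore above their partner library in each pair, although JQ1 + PHA stayed below plain DMSO for CD40LG. CD28, the main costimulatory receptor, had 1190 and 3557 counts, 2.86-fold higher (2.67 to 3.05), and CD27, a costimulatory receptor of the TNF receptor family, had 22 and 118, 5.13-fold higher (3.23 to 8.49). IL2RB, the β chain of the interleukin-2 receptor, had 55 and 218 counts, and CD82, a tetraspanin, 520 and 1533. In IL2RB and CD82 the 2 JQ1 libraries were within 2-fold of DMSO + PHA, so that the DMSO library alone stood low, and with a pseudocount of 1 IL2RB was under 2-fold.

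Of 34 listed surface molecules, 19 passed the filter. Of these, 6 were higher (31.6%, beside 2.1% of all genes compared) and 0 lower, with a median log2 ratio of 0.74, and in 15 of the 19 the interval lay above equality, as it did in 24.7% of all genes compared. Under the filter, 5 of 10 members with at least 10 counts were higher, among them ICOS, a CD28 relative, with 18 and 127 counts (6.74-fold, 4.10 to 11.7), and CRTAM, an adhesion molecule of activated T cells, with 1 and 43 (ratio 41.1, interval 6.99 to 1661). IL2RA, the CD25 chain that completes the high-affinity interleukin-2 receptor, had only 3 and 38 counts (ratio 12.1, interval 3.84 to 61.3). TFRC, the transferrin receptor of growing cells, was already abundant and nearly level at 15202 and 14577 counts. TNFRSF9, the 4-1BB receptor, had 0 counts in both.

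PDCD1 (ENSG00000188389, chr2:241849881-241858908 on the minus strand) had the largest ratio of the listed inhibitory receptors. It had 8 counts in DMSO and 356 in DMSO + PHA, a 42.5-fold higher share (21.4 to 99.3), while JQ1 and JQ1 + PHA had 1 and 20 counts. In FPKM its level was 0.130 in DMSO and 5.53 in DMSO + PHA. HAVCR2, which encodes the inhibitory receptor Tim-3, had 36 and 108 counts, 2.87-fold higher (1.95 to 4.31), at an FPKM under 1 in both, and under 2-fold with a pseudocount of 1. BTLA, another inhibitory receptor, had 6 and 22 counts, a ratio of 3.50 (1.38 to 10.6), and CD200, 0 and 13, 4.14-fold higher with the 0 set to 3 counts. CTLA4 and TIGIT had at most 2 counts in either library, and CD274, which encodes PD-L1, had 40 and 47. Of 24 listed receptors and ligands, 6 passed the filter and 1 of them, PDCD1, was past 2-fold (16.7%, beside 2.1% of all genes compared), with a median of 0.59. PDCD1 passed the filter only through DMSO + PHA, with an FPKM of 0.0155 in JQ1 and 0.328 in JQ1 + PHA. The other inhibitory receptors that were higher were all under the filter. There 4 of 12 members with at least 10 counts were higher, beside 11.8% of all such genes.

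**Figure D2:**
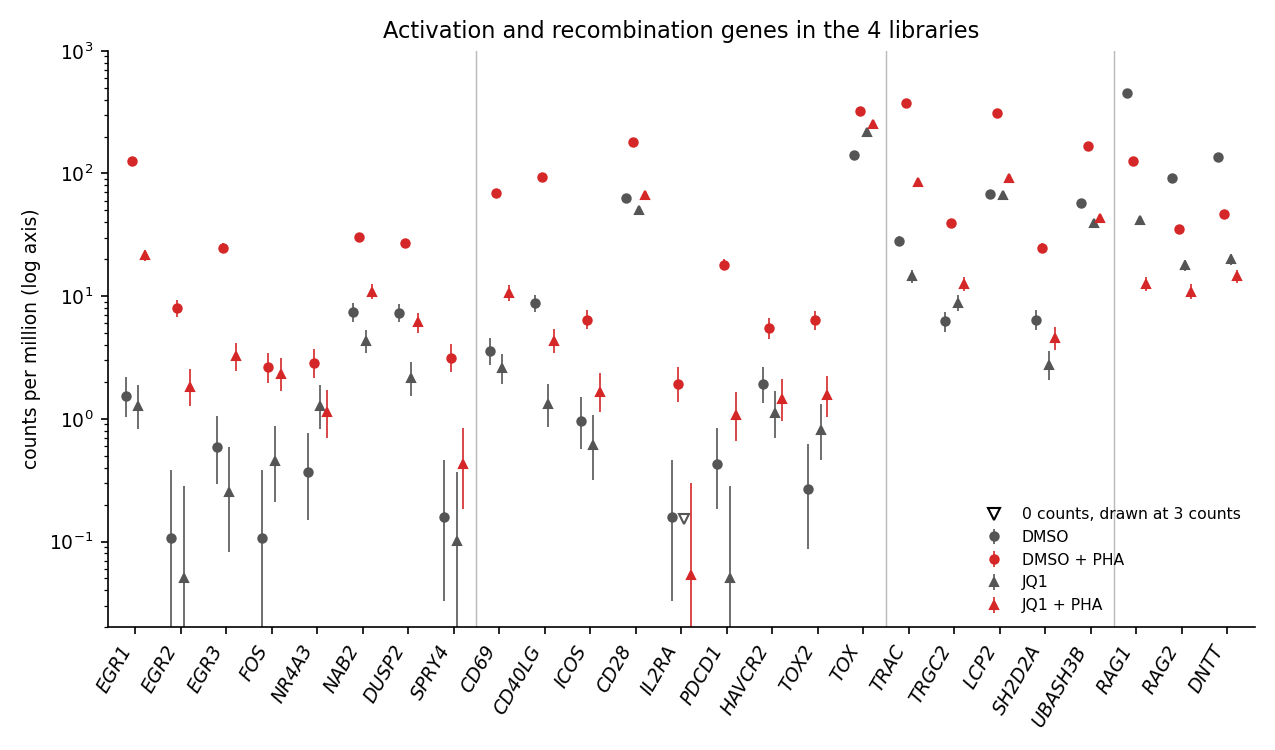
CPM (log axis) of 25 named genes in the DMSO (grey circles), DMSO + PHA (red circles), JQ1 (grey triangles) and JQ1 + PHA (red triangles) libraries, 1 library each, with exact 95% Poisson bars for counting error that may run below the axis and an open triangle at 3 counts for a library with 0. The vertical lines part early and feedback genes, surface receptors with TOX factors, T-cell receptor and adaptor genes, and recombination genes, and only in the last group does the red circle lie below the grey one.

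The T-cell receptor genes themselves split by chain. TRAC, the constant segment of the α chain (chr14:22509239-22552154 on the plus strand), had 534 counts in DMSO and 7393 in DMSO + PHA, and 286 and 1582 with JQ1, so both PHA libraries were above both without PHA. Its share was 13.2-fold higher without JQ1 (12.1 to 14.5). TRAV8-4, the α variable segment with the most counts, had 298 and 3339 counts, 10.7-fold higher (9.51 to 12.1). Summed over 55 α segments, of which 5 had at least 30 counts, counts were 948 and 11265, 11.4-fold higher (10.6 to 12.2), against 4.89-fold in the JQ1 pair. The β chain was near level, with 17376 and 20718 counts over 69 segments, 1.14-fold higher (1.12 to 1.16). In FPKM, which corrects for length, TRAC was at 16.7 in DMSO and 221 in DMSO + PHA, below TRBC1 at 330 and 374 in both.

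The γ locus lay between them. Its 16 segments had 350 and 1613 counts, 4.41-fold higher (3.92 to 4.96), but 1.35-fold in the JQ1 pair. TRGC2 had 117 and 781 counts and TRGC1 12 and 132, and these near-identical constant segments, like TRBC1 and TRBC2, can share reads. The CD3 chains, which carry the receptor's signal, were close to level: CD3D had 3561 and 4026 counts, CD3E 8670 and 8355, CD3G 2307 and 2616, and CD247, the ζ chain, 956 and 1236. TRDC had 0 counts in both, and CD4 had 408 and 241. Of the 11 receptor complex genes compared, TRAC and TRGC2 were higher (18.2%, beside 2.1% of all genes compared), with a median of 0.18. T-cell receptor and immunoglobulin segments as a class had 15 of 34 past 2-fold, 44.1% against 3.29% of all genes compared, the 6 lower ones with at most 67 counts in either library. Segments of a locus are not separate genes, so these shares are not of like units.

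Downstream of the receptor, 1 signalling adaptor and 5 negative regulators were higher. Of 41 proximal signalling genes compared only LCP2, which encodes the adaptor SLP-76, was past 2-fold, a share of 2.44% near the 2.1% of all genes compared that were higher. It had 1273 counts in DMSO and 6174 in DMSO + PHA, 4.64-fold higher (4.36 to 4.93), with 1305 and 1705 in the JQ1 pair, so the DMSO + PHA library stood above the other 3. The median of the 41 was 0.06. Of 29 negative regulators compared 5 were higher (17.2%) and 0 lower, with a median of 0.37 and an interval above equality in 23, where 2.1% and 1.19% of all genes compared were higher and lower and 24.7% had an interval above equality. UBASH3B (Sts-1), a phosphatase that dampens ZAP-70, had 1075 and 3279 counts, 2.92-fold higher (2.72 to 3.13). SH2D2A, an LCK-binding adaptor, had 121 and 489, 3.86-fold higher (3.16 to 4.75). PTPN6, the phosphatase SHP-1, had 810 and 1832 counts, SLA, which promotes receptor turnover, 2328 and 4993, and RASAL3, a RAS GTPase-activating protein, 298 and 786. For RASAL3 the JQ1 libraries were near DMSO + PHA, and with a pseudocount of 1 PTPN6 and SLA were under 2-fold, which leaves 3 of the 29.

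Feedback inhibitors of MAP kinases gave 1 gene past 2-fold. DUSP2, a nuclear phosphatase of ERK, had 137 counts in DMSO and 533 in DMSO + PHA, 3.72-fold higher (3.08 to 4.52), and 42 and 114 with JQ1, so it was past 2-fold in both pairs. DUSP2 was the 1 of 12 members compared past 2-fold (8.33%, beside 2.1% of all genes compared), and their median was 0.51. Under the filter, 3 of 7 members with at least 10 counts were higher and 1 was lower, beside 11.8% and 4.85% of all such genes. Of the higher ones, SPRY4, an inhibitor of RAS signalling, had 3 and 62 counts, a ratio of 19.8 (6.45 to 98.4). DUSP6, an ERK phosphatase, had 22 and 56, 2.43-fold higher (1.46 to 4.18).

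The factor families through which the receptor is best known to act held no gene past 2-fold above the filter, which with 3.29% of all genes compared past it sets them little apart. Of 21 genes for NFAT factors and calcium entry 0 were past 2-fold, with a median of 0.05. NFATC1, which encodes NFAT2, was under the filter, with FPKM of 0.829 and 1.78. Its counts were 275 and 618, 2.15-fold higher (1.86 to 2.48), against 171 and 226 with JQ1, but its log2 ratio was under 1 with a pseudocount of 1. STIM1, the calcium sensor of the endoplasmic reticulum, had 1110 and 2168 counts and a log2 ratio of 0.88, and ATP2B4, a plasma membrane calcium pump, 4981 and 2730, with a log2 ratio of -0.92, both short of 2-fold. Of 7 AP-1 and partner factors compared 0 were past 2-fold, with a median of -0.10. Their intervals lay above equality in 2, JUNB and JUND, and below it in 3, JUN, BATF and MAFG, with log2 ratios from -0.86 to 0.65. Of all genes compared, 24.7% lay above equality and 25.1% below. Under the filter 3 of 6 AP-1 members were higher, FOS with 2 and 52 counts, MAF with 3 and 70 and MAFF with 24 and 121, as were 2 of 3 NFAT and calcium members and 0 of 5 NF-kB members, where 11.8% of all such genes were. Of 20 NF-kB genes 0 were past 2-fold, but the median was 0.29 and 13 intervals lay above equality and 3 below. TRAF1, an NF-kB target, came nearest, with 102 and 218 counts and a log2 ratio of 0.95.

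Cytokine genes were mostly scarce or without counts after 24 h. Of 42 listed, 20 had 3 counts or fewer in both libraries, among them IL2, IL4, IFNG, CSF2 and CCL3, each with 0 counts in both, which allows up to 0.159 CPM in DMSO and 0.152 CPM in DMSO + PHA. Only 5 passed the filter, with a median log2 ratio of 0.79, and 1 was higher (20%, beside 2.1% of all genes compared). The interval lay above equality in 4 of the 5, as it did in 24.7% of all genes compared. Under the filter, 6 of 10 members with at least 10 counts were higher and 0 lower, beside 11.8% and 4.85% of all such genes. TNFSF10 (TRAIL), a ligand that triggers cell death, had 130 and 291 counts, 2.14-fold higher (1.73 to 2.65) but under 2-fold with a pseudocount of 1, and IL32 had 741 and 1363, 1.76-fold higher (1.61 to 1.93). IL16, a chemoattractant for CD4 cells, was 4.77-fold higher (3.94 to 5.81) under the filter, with 129 and 644 counts. XCL1, a chemokine, had 0 and 12 counts, 3.82-fold higher with the 0 set to 3 counts. TNF had 1 and 9 counts (ratio 8.60, interval 1.19 to 377), too few to fix its size.

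Some receptors for cytokines and chemokines were higher at low levels. IL4R, the interleukin-4 receptor, had 9 and 120 counts, a ratio of 12.7 (6.49 to 28.6), and IL21R had 14 and 90, a ratio of 6.14 (3.48 to 11.7), while 0 of 22 JAK-STAT genes compared were past 2-fold, with a median of 0.13. CCR7, the lymph node homing receptor, had 22 and 109 counts, 4.74-fold higher (2.98 to 7.87). GPR183, which guides lymphocytes to follicle borders, had 0 and 21, 6.69-fold higher with the 0 set to 3 counts. S1PR1, the receptor for exit from lymph nodes, was 2.14-fold higher (1.62 to 2.84), with 76 and 170 counts, and the DMSO library alone stood low. Of 16 homing molecules compared it was the only gene past 2-fold (6.25%, beside 2.1% of all genes compared), but it was under 2-fold with a pseudocount of 1. The median of the 16 was 0.16. Under the filter, 6 of 12 homing members and 3 of 9 JAK-STAT members with at least 10 counts were higher and 0 lower. Of all such genes, 11.8% were higher and 4.85% lower.

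Of the genes of immature lymphocytes, the 3 that recombine receptor genes were lower with PHA. RAG1, 1 of the pair of recombinase subunits that cut receptor gene segments, had 8591 counts in DMSO and 2471 in DMSO + PHA, 3.64-fold lower (3.48 to 3.81). With JQ1 it had 824 and 234 counts, so it was past 2-fold lower in both pairs. RAG2, its partner, had 1734 and 700 counts, 2.59-fold lower (2.37 to 2.83), and DNTT, the terminal transferase that adds bases at the joins, had 2554 and 914, 2.92-fold lower (2.71 to 3.16). All 3 were thus lower in DMSO + PHA than in DMSO, and the JQ1 pair lay lower still, at 352 and 202 counts for RAG2 and 392 and 271 for DNTT. They were 3 of 16 members compared (18.8% lower, beside 1.19% of all genes compared), none was higher, and the median was -0.28. The other 13 did not move one way, since over the 16 members the interval lay below equality in 10 and above it in 6. Of all genes compared, 25.1% lay below and 24.7% above. Among the 6 above were HES1, a Notch target, with 64 and 128 counts and a log2 ratio of 0.89, and DTX1, a Notch regulator, with 495 and 910 and 0.80. The CD1 antigen-presenting genes of cortical thymocytes differed less, with CD1E at 14626 and 11883 counts and CD1A at 2449 and 2278.

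T-lineage and quiescence factors differed in both directions. BACH2, a repressor that keeps T cells from effector fate, had 425 and 1521 counts, 3.42-fold higher (3.07 to 3.82). SLFN5 had 944 and 3261, but 11094 and 10818 in the JQ1 pair. GATA3, the Th2 factor, had 469 and 1041, IKZF2 (Helios) 6921 and 17249 and KLF2, a quiescence factor, 14 and 61, and in these 3 genes the DMSO library alone stood low. TSC1, an inhibitor of mTOR complex 1, was 2.42-fold lower (2.24 to 2.62), with 2180 and 941 counts, yet 1207 and 2954 in the JQ1 pair. In all 5 of 28 were higher (17.9%) and 1 lower (3.57%), beside 2.1% and 1.19% of all genes compared, with a median of 0.32. With a pseudocount of 1, GATA3 and KLF2 were under 2-fold and 3 higher genes were left.

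TOX, the HMG-box factor tied to T-cell exhaustion, had 2666 counts in DMSO and 6351 in DMSO + PHA, 2.28-fold higher (2.18 to 2.38), and 4249 and 4733 with JQ1. Its relative TOX2 had 5 and 126, a ratio of 24.1 (10.1 to 75.5), at a low level. ZEB1, a repressor of IL2 among other genes, was 2.46-fold lower (2.30 to 2.62), with 3092 and 1317 counts, and 3775 and 1294 with JQ1. These effector and exhaustion factors gave 1 higher and 1 lower gene of 12, with a median of -0.02. Each is 8.33%, beside 2.1% higher and 1.19% lower of all genes compared. Under the filter, 4 of 5 members with at least 10 counts were higher and 0 lower, beside 11.8% and 4.85% of all such genes.

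Most growth and housekeeping programmes held about as few genes past 2-fold as the 3.29% of all genes compared, so those counts do not set them apart. Of 36 mitosis genes 0 were past 2-fold (median -0.08), as were 0 of 21 G1 cyclins and their kinases and inhibitors (0.06), 0 of 25 cholesterol genes (0.12), 0 of 23 chaperones (-0.12), 0 of 21 interferon-stimulated genes (0.08), 0 of 12 MHC genes (0.04) and 0 of 29 apoptosis regulators (0.14). Single genes were higher among 39 replication genes (GINS4, a helicase subunit, with 398 and 1524 counts), 22 glycolysis genes (SLC2A3, a glucose transporter, with 167 and 511) and 26 amino acid response genes (ATF5, with 133 and 369, past 2-fold in both pairs). GINS4 was level with DMSO + PHA in the JQ1 libraries, at 1594 and 1589 counts. Among 23 cytoskeleton genes TUBA4A, a tubulin with 193 and 498 counts, and TPM4, a tropomyosin with 6062 and 12721, were higher. CST7, an inhibitor of granule proteases, was the 1 of 6 granule genes past 2-fold, with 50 and 111 counts. The shares of cytoskeleton and granule genes higher were 8.7% and 16.7%, beside 2.1% of all genes compared, with medians of 0.17 and 0.58. In 4 of the 6 granule genes the interval lay above equality and in 0 below. Under the filter, 3 of 5 granule members with at least 10 counts were higher and 0 lower, beside 11.8% and 4.85% of all such genes. With a pseudocount of 1, SLC2A3, ATF5, TUBA4A, TPM4 and CST7 were under 2-fold, and TPM4 was so with TMM or DESeq2 scaling too. Intervals lay below and above equality in 21 and 5 of 39 replication genes, 17 and 7 of 36 mitosis genes and 13 and 3 of 23 chaperones. They leaned the other way in 29 apoptosis regulators (5 and 12), 25 cholesterol genes (7 and 12) and 23 cytoskeleton genes (1 and 14). Of all genes compared, 25.1% lay below and 24.7% above. Under the filter the interferon-inducible GTPases GBP2 and GBP5 had 1 and 111 and 20 and 171 counts, ratios of 106 (18.6 to 4228) and 8.17 (5.13 to 13.7).

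**Figure D3:**
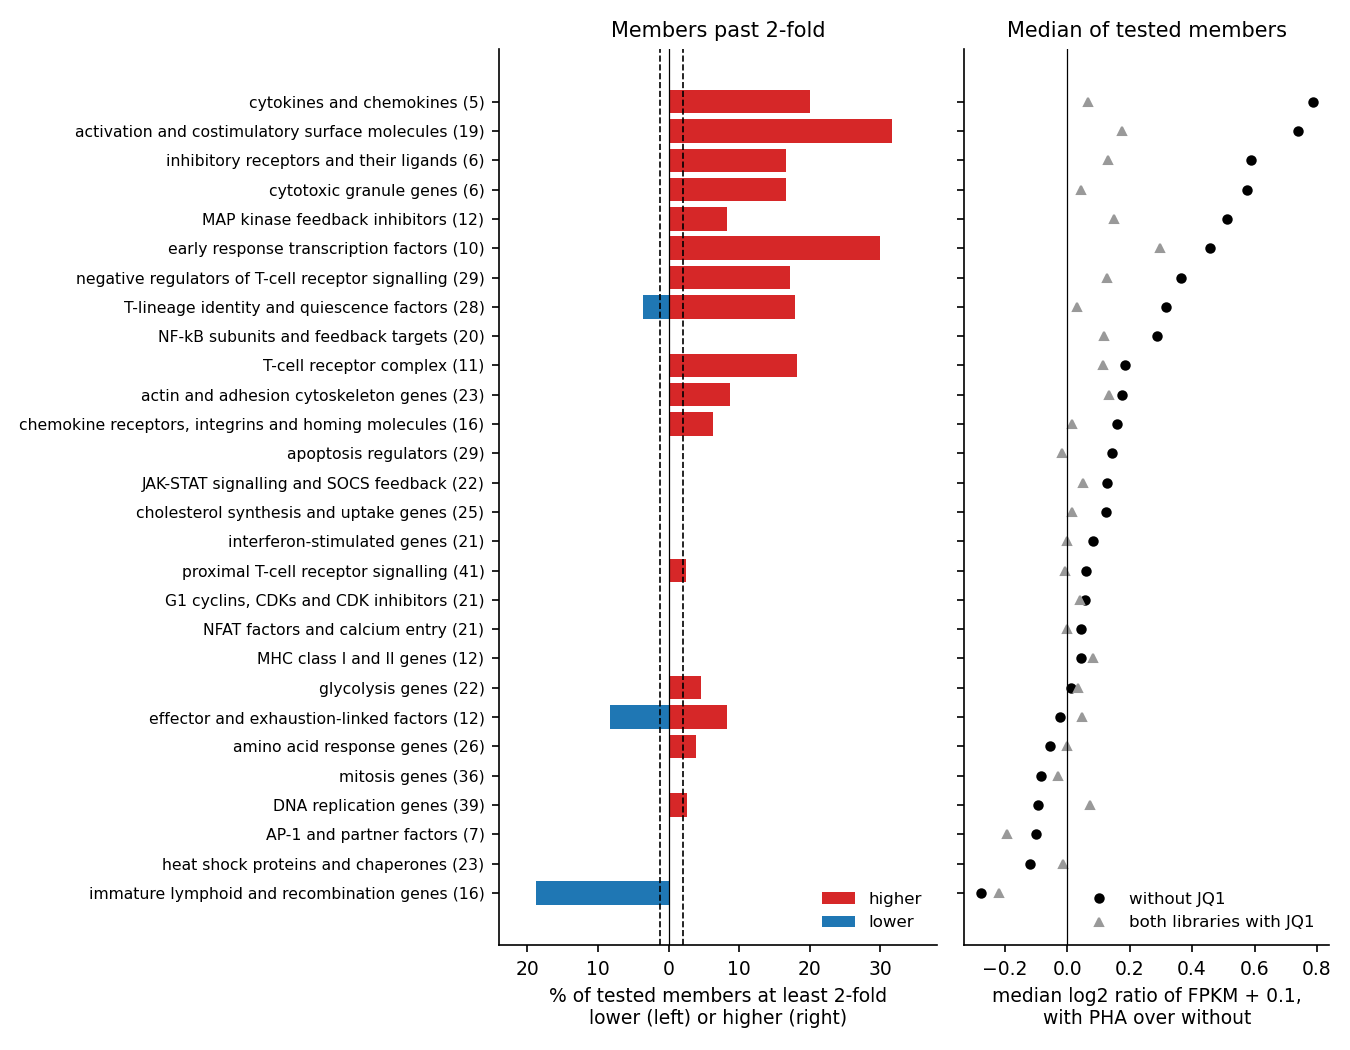
For each of 28 gene lists (number of members compared in parentheses), the left panel gives the percentage at least 2-fold higher (red) or lower (blue) with PHA without JQ1, with dashed lines at the 2.1% and 1.19% of all genes compared, and the right panel the median log2 ratio without JQ1 (circles) and between JQ1 + PHA and JQ1 (triangles). Surface molecules and early response factors have the largest red bars, and the immature lymphoid list has the largest blue bar and the lowest median. The lists were chosen with earlier results of these data known.

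Beyond the lists, and picked after their values were seen, several signalling and surface genes were higher. PTGER4, a prostaglandin E2 receptor, had 391 and 3575 counts, 8.74-fold higher (7.87 to 9.73), but 1114 and 1098 with JQ1. PRKCE and PRKCH, protein kinase C isoforms, had 176 and 901 and 3903 and 10347 counts, 4.89-fold (4.16 to 5.78) and 2.53-fold (2.44 to 2.63) higher. ITM2A, a membrane protein of activated and maturing T cells, had 2979 and 7924, and SEMA4D, a semaphorin of lymphocytes, 3422 and 8587. In PRKCE, PRKCH, ITM2A and SEMA4D the DMSO + PHA library stood above the other 3. At low levels ZBTB16, the factor of innate-like T cells, had 7 and 372 counts, a ratio of 50.8 (24.4 to 127), and COL6A3, a collagen chain, 18 and 770, a ratio of 40.9 (25.7 to 69.4).

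The JQ1 pair shares no library with the DMSO pair and gives the same comparison in cells that also held JQ1. There 120 genes were higher (1.04%) and 118 lower (1.03%). Past 2-fold the same way in both pairs were 27 higher genes, 11.2% of the 241 and 22.5% of the 120, and 18 lower genes, 13.1% of the 137 and 15.3% of the 118. The 27 include EGR1, PDCD1, CD69, TRAC, TRAV8-4, CD40LG, IER3, NAB2, DUSP2 and ATF5, and the 18 include RAG1 and ZEB1. Others of the shared set are in none of the lists, such as, picked after their values were seen, CLCN5, a chloride transporter (200 and 1235 counts without JQ1, 246 and 916 with it), and CCDC117 (4227 and 700, then 4653 and 814). In 26 genes, 6.88% of the 378, the pairs went past 2-fold in opposite ways, 16 of them higher and 10 lower without JQ1. The shares of same-way and opposite-way genes stand beside the 1.04% higher and 1.03% lower of all genes compared in the JQ1 pair. Of the rest, DMSO + PHA stood apart from 3 libraries that lay within 2-fold of one another in 149 genes (39.4%), and DMSO stood apart in 104 (27.5%, 74 higher and 30 lower). Without the latter, 167 higher and 107 lower genes remained. The part of a single library's preparation in these 104 genes was not tested.

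**Figure D4:**
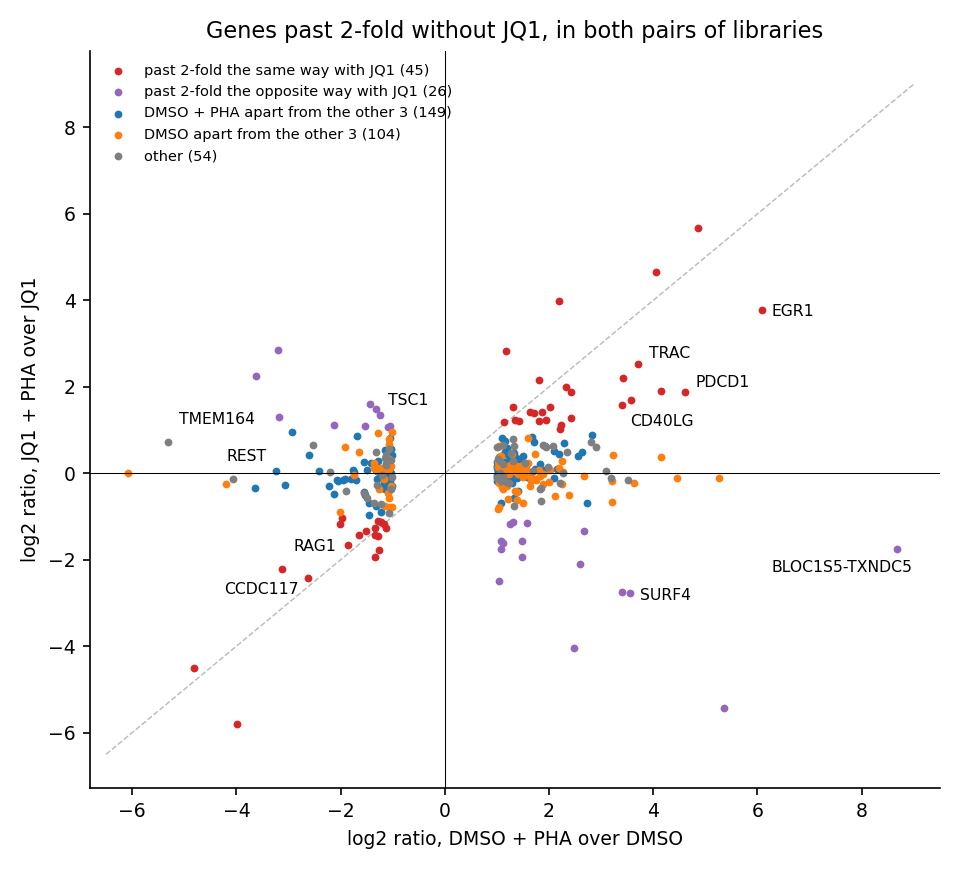
The 378 genes past 2-fold without JQ1, placed by their log2 ratio of FPKM + 0.1 with PHA over without in the DMSO pair (horizontal) and in the JQ1 pair (vertical), coloured by pattern with counts in the key, and a dashed line of equality. EGR1, TRAC, PDCD1 and CD40LG lie at the upper right below the line, RAG1 and CCDC117 at the lower left, and many genes lie near 0 on the vertical axis.

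Among the 15 genes with the highest ratios, 7 were past 2-fold in the same way with JQ1: EGR1, PDCD1, CD69 and TRAC, the genes CTD-3074O7.11 and RP5-1028K7.2, and the pseudogene ST13P19, whose reads may belong to its parent gene. RP5-1028K7.2 had only 0 and 5 counts with JQ1, and its interval there included equality. In 4 others of the 15, UPK3BL, RP11-473I1.9, NARF-IT1 and 1 of 2 entries named DUXAP8, the DMSO library alone stood low. Among the 15 with the lowest ratios, 4 were lower in both pairs: CCDC117, ZBTB9, ISY1-RAB43 and RIMBP3B. RIMBP3B had 312 and 0 counts, 109-fold lower with the 0 set to 3 counts and at least 88.0-fold by its counting interval. With JQ1 it had 259 and 0, but it has near-identical copies that can take its reads. REST, a repressor of neuronal genes, had 1933 counts in DMSO and 186 in DMSO + PHA, 10.9-fold lower (9.35 to 12.7), while the JQ1 libraries had 2951 and 2888, so that 1 library stood low. SURF4, a cargo receptor of the endoplasmic reticulum, had 492 and 6221 counts, 12.1-fold higher (11 to 13.3), but 4088 and 553 with JQ1, with no order that follows PHA.

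Some of the largest ratios belonged to genes that overlap another gene whose counts differed by a like amount the other way. BLOC1S5-TXNDC5, a read-through gene, had 0 counts in DMSO and 2424 in DMSO + PHA, while TXNDC5, an endoplasmic reticulum disulfide isomerase that lies inside it, had 2775 and 163. Their sums were 2775 and 2587, a log2 ratio of -0.17. The larger of 2 entries named PRICKLE4 had 1000 and 168 counts and its neighbour TOMM6 210 and 1243, with sums of 1210 and 1411, and C16orf72 had 3924 and 1785 and RP11-473I1.9 111 and 2901, with sums of 4035 and 4686. Such an overlapping partner, with an opposite difference of 0.5 to 1.5 times the size, was found for 28 of the 378 genes (7.41%, beside 4.83% of all genes compared) and for 4 of the 15 highest and 4 of the 15 lowest. None of EGR1, PDCD1, CD69, CD40LG, TRAC, LCP2, RAG1 and DNTT had one. Whether the count programme assigned reads of these pairs differently in the 2 libraries was not tested. Strand was not known to be used in counting, so that overlapping genes, which include NAB2, IER3, LCP2, RAG1 and DNTT, cannot be fully separated from their neighbours.

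**Figure D5:**
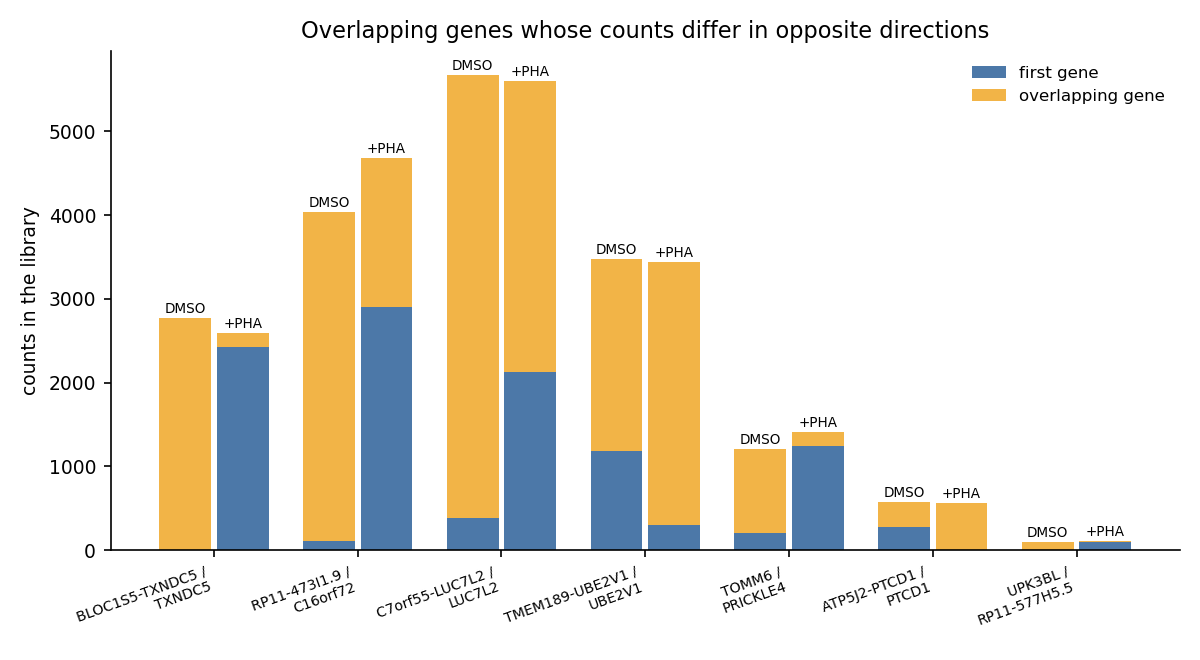
Counts (vertical axis, starting at 0) of 7 pairs of overlapping genes in the DMSO and DMSO + PHA libraries, stacked with the first gene of each label in blue and its overlapping gene in yellow. The division of each bar differs more than its height, as for BLOC1S5-TXNDC5 and TXNDC5, whose sums are 2775 and 2587.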

How the data were processed

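RNA-seq had been done on 4 libraries of Jurkat cells, 1 per condition. The authors aligned reads with Hisat2 2.0.4 to GRCh38, and the submitters' processing notes also name TopHat2 2.0.9 and Cufflinks 2.1.1. The deposited values are raw counts per gene and FPKM, which the authors computed from the counts, a gene length and the library total. The counting program and its use of strand are not given in the sources used here, and the library kit is named differently in the labels and the methods. The 4 tables were merged by Ensembl gene ID, and 49659 of 50868 genes took their type from GENCODE release 44. Ratios were computed as log2 of FPKM with a pseudocount of 0.1, in genes whose FPKM averaged 1 or more across all 4 libraries. Folds of single genes are ratios of shares of counts with exact (Clopper-Pearson) 95% intervals, and a library at 0 was set to 3 counts. Rarer genes needed 10 counts in the larger library. A promoter motif was searched on both strands. The members and the 28 pathway and 7 marker lists were chosen with earlier results of these data known. Named genes are the 15 highest and 15 lowest ratios with at least 30 counts, list members past 2-fold, up to 6 abundant or defining members of each list, list members at or under 3 counts in both libraries, and PDCD1, HAVCR2 and NFATC1, and any other is said to be picked afterwards. edgeR 4.0.16 and DESeq2 1.42.0 (R 4.3.3) gave scaling factors of the counts only. Python 3.11.15, pandas 2.3.3, numpy 2.4.6, scipy 1.17.1 and matplotlib 3.10.9 were used, and the steps were tested on simulated data.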

Additional observations from a re-analysis of the deposited data

Results flagged for a closer look

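In 7 of the named genes PHA went with opposite differences past 2-fold in the presence and absence of JQ1, with 1 library per condition, and the difference between the pairs was not tested. The log2 ratios of FPKM + 0.1 were 8.67 without JQ1 and -1.74 with it for BLOC1S5-TXNDC5, and 5.37 and -5.43 for CTD-2550O8.5, both of which have an overlapping partner of opposite difference. SURF4 was at 3.56 and -2.77. RP11-311C24.1 was at -3.63 and 2.24, the pseudogene RP1-40G4P.1 at -3.20 and 2.86, TMEM164 at -3.19 and 1.30, and TSC1 at -1.25 and 1.35.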

How the results depend on the processing

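No paired analysis was possible because each condition has 1 library and the labels give no replicate numbers. The counts of genes at least 2-fold higher with PHA and of genes at least 2-fold lower with PHA were 129 and 60 with a pseudocount of 1, 1508 and 1080 with no filter, 950 and 667 with a mean FPKM of at least 0.1, and 67 and 37 with at least 5. They were 643 and 440 past 1.5-fold and 56 and 26 past 4-fold. Among protein-coding genes alone 84 were lower. Of alternatives chosen after seeing the data, genes that overlap no other gene gave 85 and 49, and at least 100 counts in the larger library gave 91 lower genes. The other alternatives, which were a smaller pseudocount, other scalings, the filter on the DMSO pair alone, protein-coding genes for the higher count, the interval, and leaving out genes with an opposite overlapping partner or with DMSO apart, kept both counts within 1.5 times. The median log2 ratio over all tested genes was -0.0188 with TMM and -0.0212 with DESeq2 scaling. Of 330 values of 66 named genes under 5 alternatives, 0 changed direction, and 14 genes went under 2-fold with a pseudocount of 1, which were TNFSF10, IL2RB, PTPN6, SLA, GATA3, KLF2, S1PR1, CST7, SLC2A3, ATF5, TUBA4A, TPM4, HAVCR2 and NFATC1. TPM4 did so with either scaling. Of 336 list counts 27 moved by more than 1.5 times, 14 of them with the mean FPKM of at least 0.1, and 9 of 168 list medians moved by at least 0.1, among them AP-1 and partner factors, median log2 ratio 0.10 in place of -0.10 with that filter. With 1 library per condition, depth limits the genes under the filter most, where single counts move a ratio.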
